A study of Mus musculus with 12 samples.

Results

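The mRNAs described here encode poly(A)-binding proteins, 2 of their interactors and Y-box proteins: Pabpc1, Pabpc4, Pabpn1, Paip1, Paip2, Ybx1 and Ybx3. These 7 genes were found by symbol among the 15391 genes of the deposited count table, and all 7 passed the filter on low counts, as did 8773 genes in all. They were chosen by gene family with earlier results of these data known, among them the low ratios of Pabpc1 and Ybx1 in the ribosome pulldown, so their values in that comparison are a description and are no support for a claim about the family.

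RNA came from cultured adult mouse dorsal root ganglion neurons. All 4 groups carried the genotype RPL22HA+/+;Advillin-Cre+, in which Cre under the sensory neuron promoter Advillin switches on an HA-tagged ribosomal protein Rpl22 (RiboTag), and all were preconditioned by a sciatic nerve injury before culture. The groups were infected with AAV-shLarp1 or with a control virus, named AAV-shControl in the input labels and AAV-Control in the pulldown labels, and each was sequenced as an anti-HA immunoprecipitate (IP) and as input. The cell type label names cultures, while the extraction protocol names freshly collected ganglia. The labels give neither age nor animals per sample.

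Cytoplasmic poly(A)-binding protein coats the poly(A) tail, binds the initiation factor eIF4G at the cap and so joins the ends of an mRNA in a closed loop that favours translation. Its own mRNA is a TOP mRNA, a class whose transcripts begin with a terminal oligopyrimidine tract (a C followed by further pyrimidines) and which the RNA-binding protein Larp1, the target of the hairpin, binds and holds in a stable, translationally silent form. Y-box proteins are cold-shock-domain proteins that package mRNA into ribonucleoprotein particles and can hold it away from ribosomes.

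Because Larp1 recognises the first bases of a transcript, the bases around the annotated start are shown for the 5 genes with an entry in the RefSeq promoter table of build GRCm38.p6. Pabpc1 and Paip2 have no printed window. Each line runs 5′ to 3′ with 10 bases before the start and 20 from it, and the capitals mark the 5 bases from the start that were searched for a C followed by 4 pyrimidines.
Ybx1 (chr4:119294494-119294523, minus strand): ccgcccgtccCGCCAttctcgctagttcga
Ybx3 (chr6:131388431-131388460, minus strand): gcgagcacttGCGCGgggccatcttcgggg
Pabpc4 (chr4:123282901-123282930, plus strand): aaaaagaaaaGAAAAgaagaggaaaaaaaa
Pabpn1 (chr14:54894133-54894162, plus strand): ggcgggccccAGTCTgagcggcgatggcgg
Paip1, first start (chr13:119428590-119428619, plus strand): cagtctcgcaCTTTTctccggagggaccag
Paip1, other start (chr13:119428892-119428921, plus strand): ggagcgggacTTAAGggagagcgtccggca

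On the transcript strand, the first Paip1 start was the only one of these 6 windows with such a tract exactly at the start, a feature of 2.51% of the 32851 promoters in that table. None of the other 5 windows held one beginning within 10 bases of the start on either side, where 30.7% of promoters did. The Pabpc4 window held 24 A among its 30 bases and no pyrimidine. A window shows the letters at one annotated start and not which start these neurons used.

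Depth per column was 3126591 to 3177552 counts in IP libraries and 564095 to 760140 in input libraries. The 3 columns of a group had totals that differed less than counting noise would give (SD 911 against 1768 for the control IP), and 6.98% to 7.62% of genes with at least 30 counts had a chi-square p under 0.05 between them, so each group was counted as 1 sample. Of 22 pairs of a member and a group with at least 15 counts, 2 had a p under 0.05, Pabpc4 in the control IP and Ybx3 in the shLarp1 IP. All intervals below are at 95% and cover counting error only. Differences between the viruses therefore have no replicate check and carry no p-value. A gene was called where its whole interval lay beyond 1.5-fold. Larp1 had 147, 141 and 154 counts in the control IP and 55, 49 and 45 in the shLarp1 IP (log2 -1.72, -1.999 to -1.45), and Rpl22, the tagged gene, had summed IP counts of 6137 and 6039 (log2 -0.18, -0.23 to -0.12). Of 15 sensory neuron markers, 10 were called higher in the IP than in input with the control virus (median log2 1.99), and Avil, the Advillin gene, had summed counts of 761 in the control IP and 15 in its input.

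The first comparison concerned what Larp1 knockdown changed in the IP. Of the 7 genes, Pabpc1 and Ybx1 were called lower, 0 were called higher and 5 were called in neither direction. Over all 8766 genes compared, 4.4% were called lower and 0.719% higher. The median log2 ratio was 0.05 for the 7 genes and -0.08 for all genes.

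Pabpc1 (ENSMUSG00000022283), the main cytoplasmic poly(A)-binding protein, had 308, 328 and 313 counts in the control IP and 158, 149 and 147 in the shLarp1 IP. Every control IP column lay above every shLarp1 IP column, at nearly the same level within each group. The summed counts of 949 and 454 gave a 2.32-fold lower level with shLarp1 (log2 -1.22, -1.38 to -1.05). No gene with as many IP counts or more had a lower ratio. Pabpc1 lay lowest among 1502 genes with at least 1403 counts over both IP groups, its own count. Its interval overlapped that of other low genes in this set, such as a gene at -1.14 (-1.24 to -1.045). Over all 8766 genes compared, 173 (1.97%) lay lower than Pabpc1. Pabpc1 was called lower under each of 4 other scalings (log2 -1.21 to -1.09) and without any one of the 12 columns (-1.25 to -1.19). Input columns enter this ratio only through the scaling. The columns of a group count as 1 sample, so leaving 1 out is no replicate check. Reads of near-identical Pabpc1 and Ybx1 copies elsewhere in the genome cannot be told apart from these genes in such a table.

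Ybx1 (ENSMUSG00000028639), the broadly expressed Y-box protein, had 237, 248 and 221 counts in the control IP and 149, 142 and 154 in the shLarp1 IP. The columns of the 2 groups again did not overlap. The sums of 706 and 445 gave a 1.76-fold lower level (log2 -0.82, -0.99 to -0.65). Over all 8766 genes compared, 541 (6.17%) lay lower than Ybx1, as did 30 of the 1725 genes of equal or higher count. This call was near the limit: it was lost with total counts (-0.69), upper-quartile factors (-0.69) and a control IP column as TMM reference (-0.75), and without the second control IP column (-0.78).

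**Figure D1:**
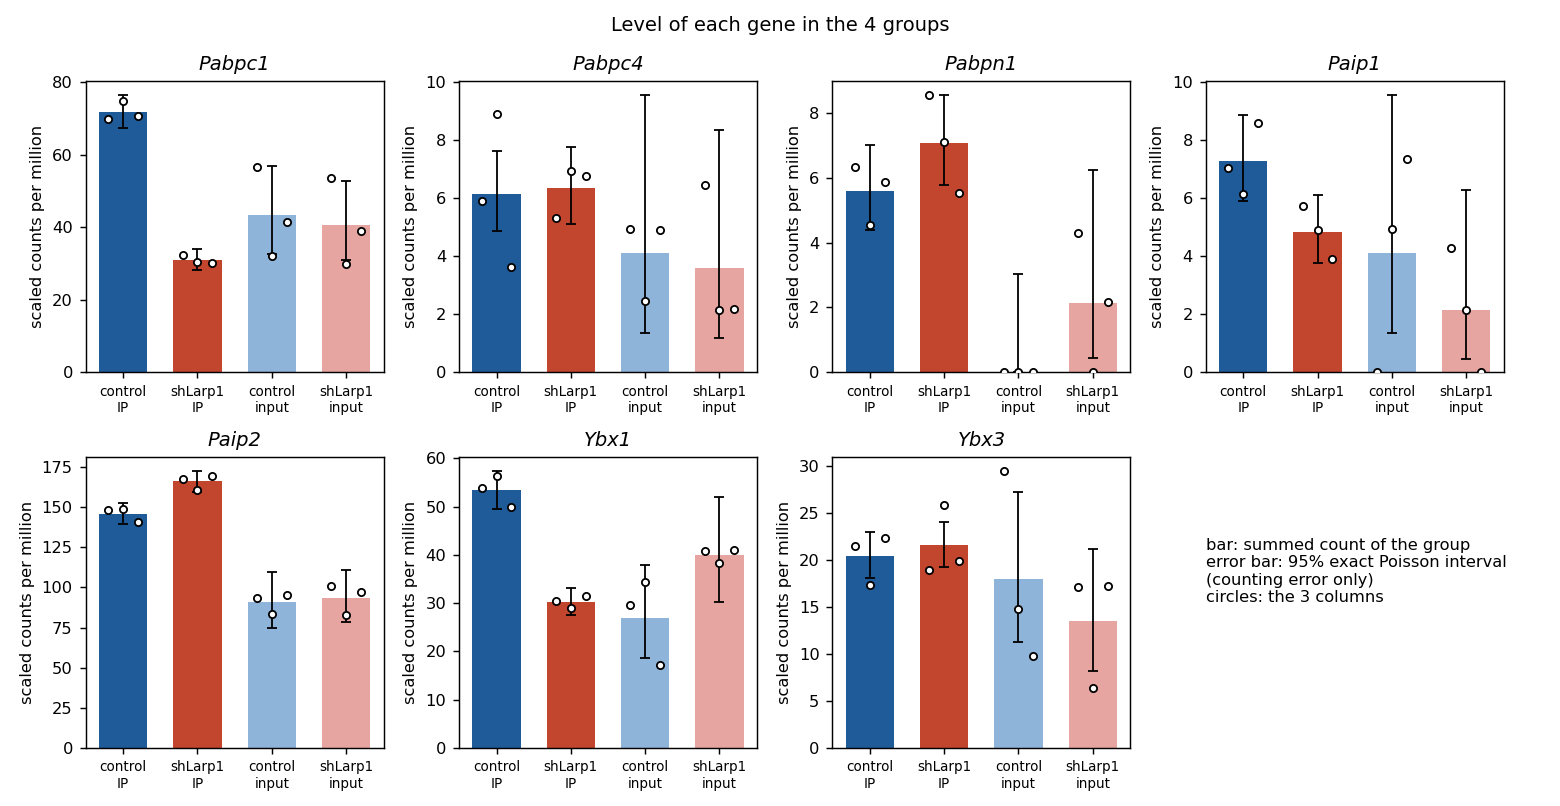
Scaled CPM of each gene (y axis, from 0, a separate scale in each panel) in the control and shLarp1 IP and input groups. Bars are summed counts with 95% exact Poisson intervals and circles are the 3 columns; the shLarp1 IP bar is the lower of both IP bars for Pabpc1, Ybx1 and Paip1, whose IP intervals overlap only for Paip1.

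Pabpc4 (ENSMUSG00000011257), a second cytoplasmic poly(A)-binding protein, did not move with Pabpc1. It had 26, 39 and 16 counts in the control IP and 26, 34 and 33 in the shLarp1 IP, so the columns overlapped widely. Its log2 ratio was 0.05 (-0.40 to 0.49), an interval that lies wholly inside 1.5-fold, and leaving out single columns moved it between -0.22 and 0.41.

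Pabpn1 (ENSMUSG00000022194), the nuclear poly(A)-binding protein that controls tail length during polyadenylation, had 28, 20 and 26 counts in the control IP and 42, 35 and 27 in the shLarp1 IP. The columns overlapped, and the log2 ratio was 0.34 (-0.11 to 0.79).

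The partners of Pabpc1 split in sign. Paip1 (ENSMUSG00000025451), a partner that stimulates translation, had 31, 27 and 38 counts in the control IP and 28, 24 and 19 in the shLarp1 IP, a log2 ratio of -0.59 (-1.05 to -0.13) that did not pass the 1.5-fold rule. Paip2 (ENSMUSG00000037058), which displaces poly(A)-binding protein from poly(A) and represses translation, had 653, 654 and 623 counts in the control IP and 822, 792 and 828 in the shLarp1 IP. Its columns did not overlap, yet the difference was small (log2 0.19, 0.10 to 0.27), and 4 other scalings gave 0.20 to 0.32.

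Ybx3 (ENSMUSG00000030189), the second somatic Y-box protein, had 95, 76 and 99 counts in the control IP and 93, 127 and 97 in the shLarp1 IP. The columns overlapped and the log2 ratio was 0.08 (-0.16 to 0.32), again wholly inside 1.5-fold, and leaving out single columns moved it between -0.07 and 0.16.

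Each of the lower genes thus had a relative of the same family that was not called, and the ratio of both can be compared without any scaling of the groups. These ratios were added after the values were seen. The Pabpc1 count was 11.7 times that of Pabpc4 in the control IP and 4.88 times in the shLarp1 IP, a change of log2 -1.26 (-1.72 to -0.80). The Ybx1 count was 2.62 times that of Ybx3 in the control IP and 1.40 times in the shLarp1 IP, a change of log2 -0.90 (-1.19 to -0.61). Both intervals lay beyond 1.5-fold with all columns. That of the Pabpc pair no longer did without the third control IP column (-1.003), nor that of the Ybx pair without the second control column (-0.75) or the second shLarp1 column (-0.71). Between the lower genes themselves, the Pabpc1 to Ybx1 ratio went from 1.34 to 1.02 (log2 -0.40, -0.63 to -0.16).

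**Figure D2:**
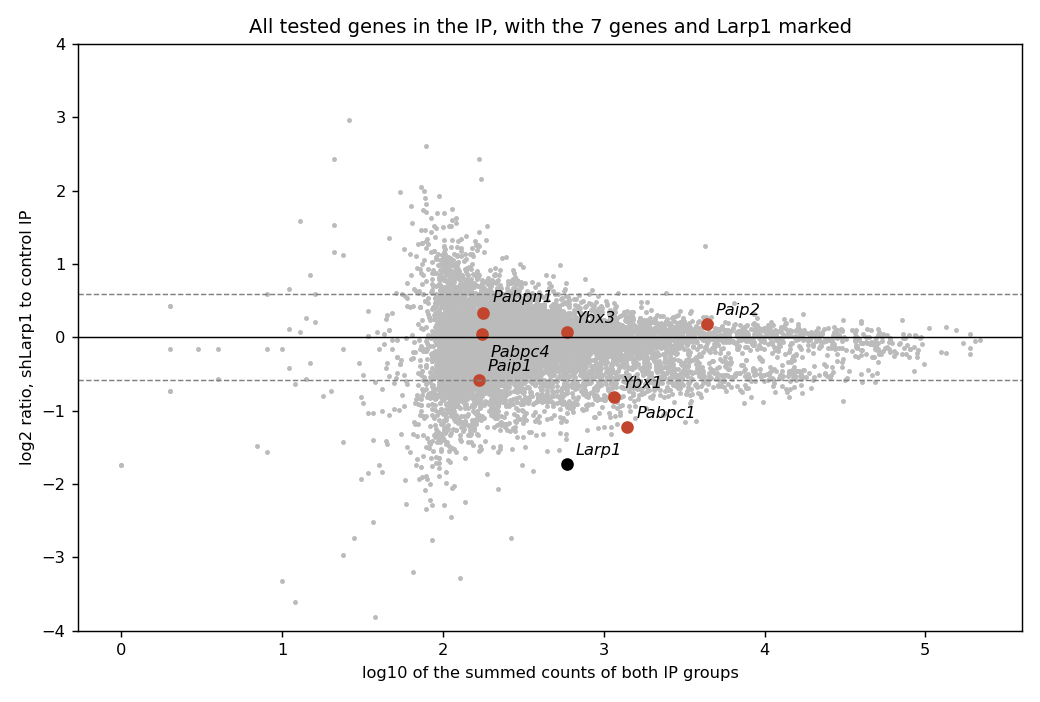
Log2 ratio of shLarp1 to control IP (y axis) against log10 of the summed counts of both IP groups (x axis) for all tested genes in grey, with the 7 genes in red and Larp1 in black; dashed lines mark 1.5-fold, and a few genes lie beyond the y range. Pabpc1 (-1.22) and Ybx1 (-0.82) lie at the lower edge of genes with like counts, and Larp1 lies at -1.72.

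The second comparison concerned the input RNA. None of the 7 genes was called in either direction, where 1.01% of 7588 genes were called lower and 0.171% higher, and their median log2 ratio, with Pabpn1 at its floor, was -0.20 against -0.16 for all genes. Input was shallow, and equal input counts correspond to -0.20 under this scaling. The median of all genes ran from -0.39 with total counts to 0.08 with a control IP column as TMM reference, so input values are read against it.

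Pabpc1 had 23, 13 and 17 counts in the control input and 25, 14 and 18 in the shLarp1 input. The groups overlapped almost wholly, and the log2 ratio was -0.09 (-0.66 to 0.48), a counting interval that excludes a difference as large as the one in the IP. The sign of this value depends on the scaling (-0.33 to 0.14). Ybx1 had 12, 14 and 7 counts in the control input and 19, 18 and 19 in the shLarp1 input. Here every shLarp1 column lay above every control column in counts and in scaled CPM, opposite to the IP. The shLarp1 input columns were also deeper, at 759527 to 760140 counts against 564095 to 564625. The columns of a group count as 1 sample, so their order is no replicate check. The log2 ratio was 0.57 (-0.08 to 1.23), was not called, and ran from 0.33 to 0.80 over 4 other scalings.

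Paip2 had 38, 34 and 39 counts in the control input and 47, 39 and 45 in the shLarp1 input, a log2 ratio of 0.04 (-0.33 to 0.42) that ran from -0.19 to 0.28 over 4 other scalings. Ybx3 had 12, 6 and 4 counts against 8, 3 and 8 (log2 -0.41, -1.38 to 0.54). The remaining genes were too sparse for a comparison at this depth: Pabpc4 had 5 input counts with each virus, Paip1 had 5 and 3, and Pabpn1 had 0 with the control virus, which allows up to 2.46 scaled CPM by the limit of 3 counts, and 3 with shLarp1.

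The third comparison set the change in the IP against the change in input. Ybx1 was called lower (log2 -1.37, -2.01 to -0.73), alone among the 7 genes, where 5.57% of 7588 genes were called lower and 1.38% higher. Its value was -1.58 to -1.01 under 4 other scalings, and it was not called with total counts (-1.01) or without the third control input column (-1.12). Pabpc1 had a similar value whose interval just reached inside 1.5-fold (log2 -1.12, -1.68 to -0.56). It was called with DESeq2 size factors (-1.32) and with a control IP column as reference (-1.28), and not with upper-quartile factors (-1.14) or total counts (-0.76). Paip2 had 0.15 (-0.23 to 0.52) and Ybx3 0.48 (-0.42 to 1.39), against a median of 0.07 for all genes.

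Of the 15 sensory neuron markers, 1 was called lower and 0 higher in input, with a median log2 ratio of -0.43 against -0.16 for all genes, and 0 were called in the IP. They summed to 2240 scaled CPM (counts scaled to depth) in the control input and 1260 in the shLarp1 input, while the IP held 5455 and 5699. The 10 Schwann cell and satellite glia markers summed to 565 and 590 in input and 525 and 486 in the IP. The 6 fibroblast markers summed to 59.7 and 52.8 in input and 52.5 and 63.5 in the IP. The 6 macrophage markers found of 8 summed to 40.1 and 30.7 in input and 25.5 and 25.7 in the IP, and the 5 vessel markers to 143 and 88.5 in input and 80.8 and 71.2 in the IP. In each input 1 of the fibroblast markers was at 0, as were 2 vessel markers in the shLarp1 input, and none was at 0 in both inputs. The part of these markers in the results was not tested. In such bulk samples, fewer cells of a type and less RNA per cell cannot be told apart.

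**Figure D3:**
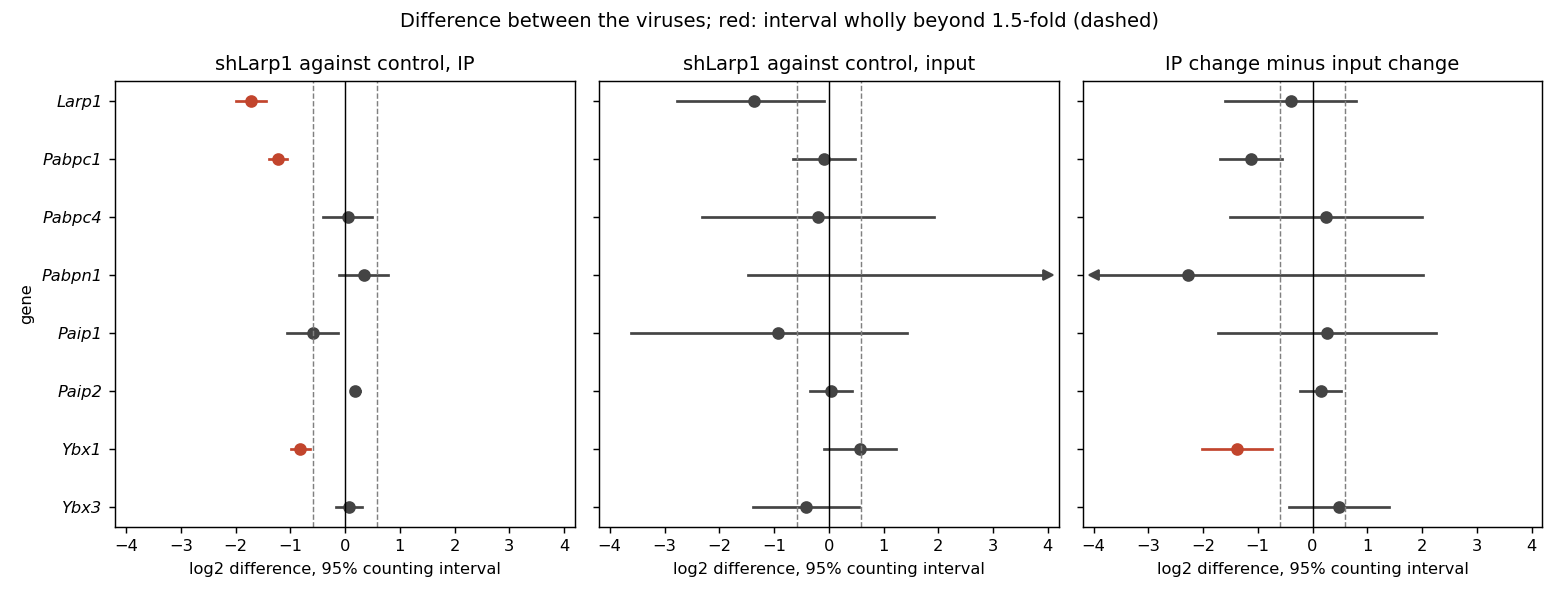
Log2 difference (x axis) with its 95% counting interval for Larp1 and the 7 genes in the IP, in input, and for the IP change minus the input change. Red marks intervals wholly beyond 1.5-fold (dashed lines), arrowheads mark intervals that run beyond the axis, and Pabpn1 has no point in input because its control input count is 0; Pabpc1 and Ybx1 are red in the IP, and Ybx1 alone is red in the third panel.

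The last comparisons set IP against input with each virus, which asks how far an mRNA is found with tagged neuronal ribosomes relative to the whole culture. They share IP and input samples with the comparisons above and are no independent evidence. With the control virus, the median log2 ratio was 0.73 for the 7 genes and 0.65 for all genes. Pabpn1 was the only one of the 7 called higher, at least 2.28-fold higher against a floor of 3 input counts over the group, with an exact interval that begins at 1.81-fold, where 23% of 8773 genes were called higher and 12.5% lower. That call rests on few counts and was lost without any one control input column and with upper-quartile factors (0.70).

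Pabpc1 had 0.73 (0.33 to 1.15) and Ybx1 0.98 (0.48 to 1.53) with the control virus, near the middle of all genes: 52.0% and 59.2% of genes lay lower. With shLarp1 they had -0.40 (-0.80 to 0.03) and -0.40 (-0.80 to 0.03), and 20.2% of genes lay lower than each. These ranks do not depend on the scaling, while the sign does: with total counts both shLarp1 values were above 0 (0.95 and 0.94). Paip2, the gene with the most counts of the 7, had 0.68 (0.41 to 0.97) and 0.83 (0.58 to 1.09), with 50.8% and 49.5% of genes lower. Ybx3 had 0.18 (-0.45 to 0.88) and 0.67 (0.00 to 1.42), Pabpc4 0.58 (-0.70 to 2.24) and 0.83 (-0.45 to 2.48), and Paip1 0.83 (-0.45 to 2.48) and 1.17 (-0.43 to 3.49). With shLarp1 none of the 7 was called, against 25.9% of 8771 genes higher and 13.1% lower.

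Across the 4 groups, Pabpc1 was highest in the control IP, at 71.8 scaled CPM (67.3 to 76.5). It followed in the control input with 43.4 (32.5 to 56.7), the shLarp1 input with 40.7 (30.8 to 52.7) and the shLarp1 IP with 30.9 (28.1 to 33.9), of which neighbours overlap. Ybx1 was likewise highest in the control IP, at 53.4 (49.5 to 57.5), followed by the shLarp1 input with 40.0 (30.2 to 51.9), the shLarp1 IP with 30.3 (27.5 to 33.2) and the control input with 27.0 (18.6 to 37.9). Its highest level overlapped that of the shLarp1 input. The place of input among the IP levels depends on the scaling.

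**Figure D4:**
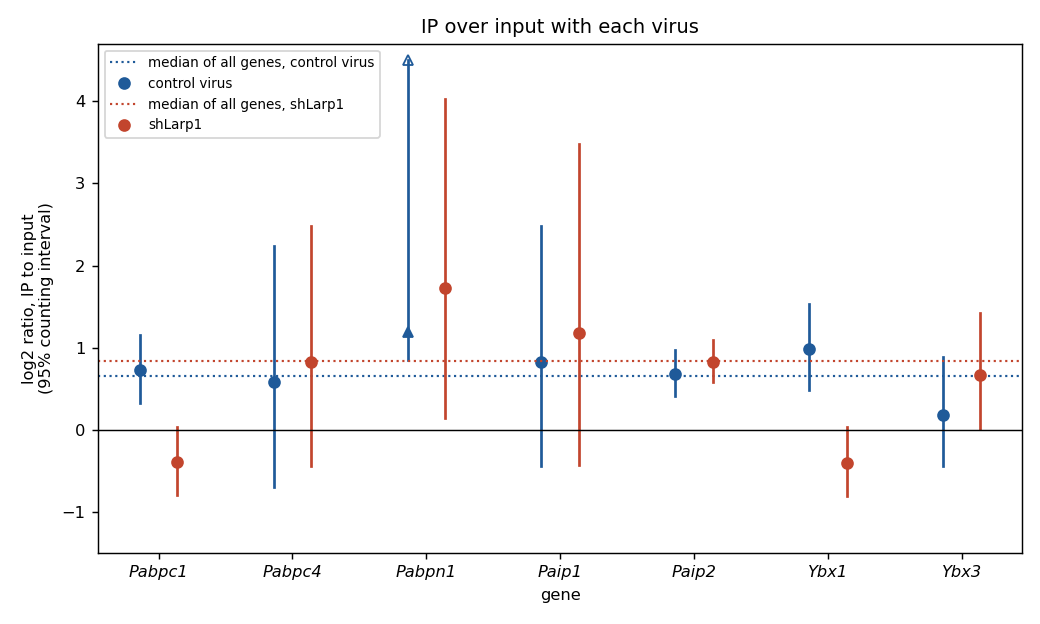
Log2 ratio of IP to input (y axis) with 95% counting intervals for each gene with the control virus (blue) and with shLarp1 (red); dotted lines are the medians of all genes (0.65 and 0.84). Filled triangles mark a lower bound, an open one an interval without upper end; Pabpc1 and Ybx1 lie at the control median or above it with the control virus and below the shLarp1 median with shLarp1.

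The genes whose pattern over the 4 groups was most like that of Pabpc1, among 2926 genes with enough counts, were Gpm6b, Ccni, Pigk, Sfrp1 and Dennd2a. The measure was the root mean square difference of centred log2 levels over the 4 groups, which was 0.15 to 0.20 for these genes and 0.60 for the median gene. Their IP log2 ratios were -0.88, -1.08, -0.75, -0.87 and -0.77. For Ybx1 they were Ccng1, Srpk2, Mid1ip1, Metrn and again Dennd2a (0.09 to 0.16), with IP log2 ratios of -0.64, -0.59, -0.49, -0.77 and -0.77. The measure weighs the 4 groups alike. Several of these genes had under 20 input counts per group, so their likeness in input is uncertain.

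Relatives of the 7 genes, other TOP mRNAs and genes of translation and mRNA handling were read from 7 lists. Of 18 other TOP mRNAs outside the ribosomal proteins, 0 were called in the IP, with log2 ratios of -0.29 to 0.17 and a median of -0.08, the value of all genes. Pabpc1, itself a TOP mRNA, lay below that whole range. Examples are the elongation factor subunit Eef1b2 (-0.17, -0.21 to -0.13) and Naca, a subunit of the nascent-chain complex (-0.02, -0.05 to 0.02). In input the same list had a median of -0.47 with 2 called lower, Eef1g (-1.09) and Tpt1 (-0.89), and for the IP change against the input change Tpt1 (0.88) and Btf3 (0.83) were called higher, with 14 of the 18 above the median of all genes and Pabpc1 below it. In IP over input, Eef2 (1.03 and 1.07) and Vim (0.84 and 0.89) were called higher and Tpt1 lower (-2.44 and -1.56) with both viruses. With shLarp1, Eef1a1 (0.73), Eef1g (1.30), Eif3f (1.35) and Eif4b were called higher too, 6 of 18 in all, where 25.9% of all genes were. With the control virus 2 of 18 were called higher, where 23% of all genes were. The list median lay below that of all genes with the control virus (0.335 against 0.652) and with shLarp1 (0.599 against 0.841).

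On the list of cap-binding, eIF3 and release factors and their relatives, 0 of 14 tested genes were called in the IP, with a median of 0.00. Eif4a2, an RNA helicase of the cap complex, had 0.01 (-0.12 to 0.14) and Eif4g2 had -0.26 (-0.37 to -0.15). The same list had 0 calls in input and 0 for the change in IP against that in input. In IP over input, 5 of 14 were called higher with the control virus, where 23% of all genes were (median 1.12 against 0.65 for all genes), namely Eif4h (2.27), the release factor Etf1 (1.85), Eif3b (1.82), Eif4a2 (1.24) and Eif3g (1.18). With shLarp1 these were again called, and with them Eif4b (1.95), Eif4e2 (1.28) and Eif4a1 (1.13), 8 of 14 in all, where 25.9% of all genes were (median 1.24 against 0.84).

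Of 9 tested proteins that bind poly(A)-binding protein through PAM2-type motifs, 8 were not called in the IP. The 1 called lower was Larp1, the target of the hairpin, which is included in the list median of -0.12. Pan3, a subunit of a deadenylase that is recruited by poly(A)-binding protein, had -0.44 (-0.56 to -0.33) in the IP and was called lower for the IP change against the input change (-0.95, -1.08 to -0.82). Atxn2l, an ataxin-2 relative, had -0.35. Pan3 lay far lower in IP than in input with both viruses (-4.55 and -5.50). Its summed counts were 2995 and 4875 in the control and shLarp1 inputs and 1382 and 1129 in the deeper IP groups. The source of this input signal was not tested. Larp4b (2.89) was called higher in IP over input with the control virus, and Larp4 (-1.55) lower with shLarp1.

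No gene was called in the IP among 4 tested relatives of the 7 genes (median -0.22), 10 of nuclear cleavage and polyadenylation (-0.12), 10 of the deadenylation complex (-0.07) or 14 other mRNA-coating proteins (-0.19). Paip2b, the paralogue of Paip2, had -0.60 (-0.74 to -0.46) and Carhsp1, a cold-shock-domain protein, 0.19 (0.09 to 0.29). The polyadenylation factors Nudt21 and Fip1l1 had 0.10 (-0.14 to 0.34) and -0.22 (-0.47 to 0.03), and the mRNA-binding proteins Hnrnpu and Serbp1 had -0.25 (-0.42 to -0.07) and -0.35 (-0.50 to -0.19). Neither Cnot7, a deadenylase subunit (-0.14, -0.53 to 0.25), nor Btg1, an adaptor of that complex (0.36, 0.08 to 0.65), passed the 1.5-fold rule.

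In input none of these 4 lists had a call (medians 0.13, 0.04, 0.12 and -0.28). For the IP change against the input change Elavl1 (-0.98), a binder of AU-rich elements, was the only gene of the 4 lists called. Elavl1 had summed counts of 722 and 989 in the control and shLarp1 inputs and 637 and 429 in the IP groups. In IP over input, Elavl1 (-3.62 and -4.60), the mRNA-binding protein Igf2bp2 (-2.11 and -2.92) and the polyadenylation factor Wdr33 (-1.49 and -1.35) were called lower with both viruses. Zc3h14 was called higher with both, with a log2 ratio of 3.19 with the control virus, on 1 input count, and, with shLarp1 and an input count of 0, of at least 1.64 against the floor of 3 counts (interval from 1.31). Caprin1 (2.14 and 1.48), Fxr2 (1.55 and 1.46) and Cpsf2 (2.63 and 2.39) were called higher with both viruses. With the control virus alone Hnrnpu (1.76), Fip1l1 (1.84) and Cnot9 (at least 1.11 against the floor, interval from 0.77) were called higher, and with shLarp1 alone G3bp2 (1.60); whether these differ between the viruses is given only by the third comparison, in which none of the 4 was called.

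**Figure D5:**
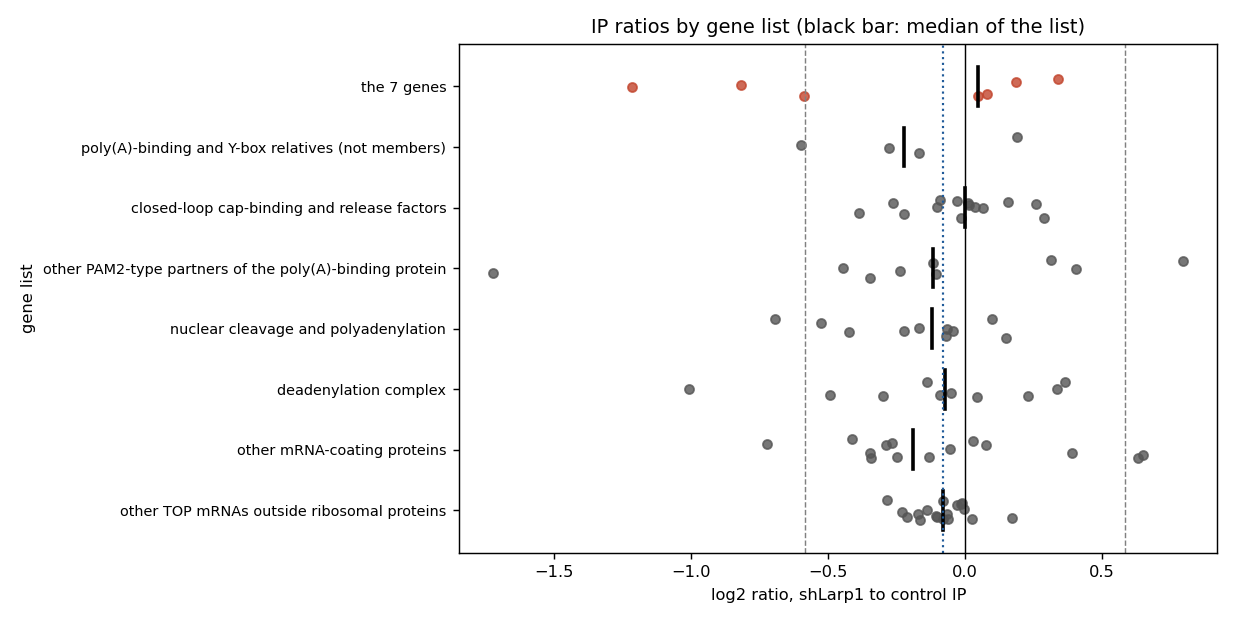
Log2 ratio of shLarp1 to control IP (x axis) for the 7 genes (red) and the tested genes of each list (grey), with the median of each list as a black bar, the median of all genes (-0.08) as a dotted line and 1.5-fold as dashed lines. The 7 genes spread from -1.22 to 0.34, and the 18 other TOP mRNAs lie between -0.29 and 0.17.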

How the data were processed

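The authors deposited estimated counts per gene, given as unscaled whole numbers, for 12 columns in 4 groups of 3. A nanopore cDNA-PCR barcoding kit was used, per the labels' protocols. The submitters' processing notes name minimap2, Salmon, GRCm39 and mm39. Their versions, the annotation and the strand setting: not given in the sources used here. PCR copies are not independent molecules.

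Symbols were matched by identifier for 13711 of 15391 genes. The genes and lists were chosen with earlier results of these data known. The 12 columns were filtered with filterByExpr (minimum count 10) and scaled by TMM factors of edgeR 4.0.16 in R 4.3.3. Counts and scaled sizes were then summed per group, with 1 sample per group. Scaled CPM are counts divided by these scaled sizes. Ratios have exact (Clopper-Pearson) intervals at 95%. For the IP change against the input change, 0.5 counts were added and the interval is a normal approximation. A count of 0 was set to a floor of 3 counts over the group. Intervals and call rule were tested on simulated data with counting noise only and known group sizes. That test covers neither the scaling, nor PCR copies, nor variation between samples.

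Genes named are the 7, Larp1, called list genes, the 2 list genes with most IP counts, and the 5 nearest patterns; 1 called list gene is not reported here. Alternatives were 4 scalings, no filter, each column left out (with gene set and TMM reference group kept), edgeR's quasi-likelihood test on the columns with and without the replicate number as block, and DESeq2 1.42.0. The planned protein sequences are not used here.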

Additional observations from a re-analysis of the deposited data

Results flagged for a closer look

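The change of Ybx1 in the IP differed from that in input. Its IP log2 ratio lay below 0 and its input ratio above 0, with an input interval that includes 0 (-0.08 to 1.23). The interval of the difference itself (log2 -1.37, -2.01 to -0.73) lay wholly beyond 1.5-fold. The difference was not called with total counts (-1.01) or without the third control input column (-1.12). The summed counts behind it were 706 and 445 in the IP and 33 and 56 in input, so the input counts set most of the width. The 15 sensory neuron markers summed to 2240 and 1260 scaled CPM in the 2 inputs, with 1 of them called lower (median log2 -0.43), and their part in the result was not tested.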

How the results depend on the processing

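Pabpc1 was called lower in the IP under every scaling, test and left-out column run. For Ybx1 in the IP, the value ran from -0.86 to -0.78 over the left-out columns, and it was not called with a control IP column as TMM reference (-0.75), total counts (-0.69) or upper-quartile factors (-0.69), each of which left 1 gene of the 7 called lower; left-out columns gave 1 to 2. DESeq2 and edgeR's quasi-likelihood test on the columns, with and without the replicate block, called 1 of the 7 higher in the IP (Paip2, log2 0.20, 0.19 and 0.19), but these treat near-identical columns as replicates and their threshold has no minimum fold.

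For the IP change against the input change, Pabpc1 was called with DESeq2 (-1.32), DESeq2 size factors (-1.32), a control IP column as reference (-1.28), edgeR (-1.12) and the replicate block (-1.12), so that 2 of the 7 were called lower under these. With total counts Ybx1 had -1.01 and 0 of the 7 were called. Over the left-out columns Pabpc1 ran from -1.34 to -0.88, called without the first control input or the second shLarp1 input column, Ybx1 from -1.57 to -1.12, and the number called from 0 to 2.

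For IP over input with the control virus, 4 of the 7 were called higher by DESeq2, edgeR, the block and total counts, 2 without the filter, 0 with upper-quartile factors and 0 to 1 over the left-out columns. With shLarp1 1 was called higher by DESeq2 and without the filter, 2 by edgeR and the block, 5 with total counts and 0 to 1 over the left-out columns, and DESeq2 called 2 lower, Pabpc1 (-0.49) and Ybx1 (-0.50), whose values lay above 0 with total counts (0.95 and 0.94). Over all genes, higher calls with the control virus were 3091 to 3243 in the tests on the columns, 4549 with total counts and 2398 without the filter. As reported they were 2021 of 8773. With shLarp1 they were 3055 to 3857, 6183 and 2689 in the same order, and 2274 of 8771 as reported. Lower calls over all genes with shLarp1 were 1499 to 1589 in the tests on the columns. The cause of these shifts was not tested.

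Over all genes, 63 higher and 386 lower calls in the IP became 105 and 204 with total counts and 104 and 207 with upper-quartile factors, 313 and 753 without the filter, and 384 to 596 and 1497 to 1838 in the column tests. In input 13 and 77 became 214 and 29 with a control IP column as reference, 181 and 35 with DESeq2 size factors, 117 and 43 with upper-quartile factors 7 and 204 with total counts, 21 and 78 without the filter, and 455 to 754 and 156 to 315 in the column tests. The counts for the IP change against the input change ran over scalings from 47 to 401 higher and 138 to 553 lower (105 and 423 as reported) and were 154 to 333 and 631 to 820 in the column tests. For IP over input they ran over scalings from 1293 to 4549 higher and 651 to 1590 lower with the control virus (2021 and 1095), and from 1328 to 6183 higher and 748 to 1489 lower with shLarp1 (2274 and 1147). The median of all genes in IP over input ran from 0.17 to 1.63 and from 0.34 to 2.18. Input depth, a median of 2 counts per gene, limits every value that uses it.

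Deviations of same-numbered columns correlated at -0.07 to 0.05 over 18 pairs, and those of other pairs at -0.05 to 0.08 over 36. The columns of a group differ by about counting noise, so these values cannot show whether the replicate numbers pair the columns.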
